A study of Mus musculus with 12 samples.

Results

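The genes described here belong to the machinery with which the endoplasmic reticulum (ER) takes in, folds, checks and dispatches secreted proteins. A list of 38 such genes was set, by name, against a table of array intensities from mouse gastric mucosa. For each gene the probe set (a group of short oligonucleotides that reads 1 transcript) with the highest mean over all arrays was taken. In this way 37 of the 38 genes were measured, out of 12393 genes with a symbol of their own. Sec61g, a small subunit of the protein-conducting channel, was read only by a probe set shared with other gene names and was not used. The 37 genes had 83 probe sets in all, and 24 of them had more than 1.

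Proteins bound for secretion are steered to the ER membrane by the signal recognition particle, pass through the Sec61 channel, lose their signal peptide to signal peptidase, and are folded by chaperones and disulfide isomerases in the ER lumen. Chains that fail to fold are sent back to the cytosol and destroyed, a route called ER-associated degradation. When unfolded proteins build up, the sensors ATF6, IRE1 and PERK start the unfolded protein response, which acts through the transcription factors ATF6, XBP1, ATF4 and CHOP. Among these factors, ATF6 and XBP1 raise the expression of chaperones and degradation factors. In the gastric fundus the chief cells, which secrete pepsinogen, are rich in ER, and mucous cells secrete mucins and trefoil factors.

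RNA from scrapings of the fundic mucosa was hybridised to 12 one-colour arrays, 3 in each of 4 groups. One group was wild type. In 2 groups the mice were knockouts for gastrin that had received an infusion for 1 week, of saline in one and of gastrin in the other. The last group lacked both gastrin and cholecystokinin (CCK), and is called the double knockout. Gastrin is the antral hormone that drives acid secretion, and CCK is the related intestinal hormone. The labels give an age of 2 months and male sex for the saline-infused group only, say that about 2 to 4 mice were dissected for the wild-type samples, and mention no infusion for the wild-type and double knockout mice. Infusion therefore differs along with genotype wherever an infused group was compared with one of these, and the deletions are of the whole animal as far as the labels say. Whether replicate samples are separate animals or pools is not stated, so the p-values measure only how far these samples spread, and that spread may be technical. Replicates are called array 1 to array 3 of their group.

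The deposited values are probe set intensities in array units, which rank 1 probe set across arrays but not different probe sets against each other. The array medians lay between 403 and 421. The intensity of Gast, the gene for gastrin, was 579 ± 253 (SD, n = 3) in the wild type and between -162 and 37 on the 9 knockout arrays. The brightest part of the scale was lower in the double knockout, where the 99.9th percentile of intensity was 40212 to 43152 against 53176 to 65657 on the other 9 arrays. A ratio of the 3' to the 5' control probe set of Gapdh, a sign of RNA integrity, was 1.51, 2.00 and 0.983 on wild-type arrays 1 to 3 and between 1.01 and 1.32 on all others. Calls were recomputed with this ratio in the model and, as a choice made after seeing the data, without wild-type arrays 1 and 2. Fundic markers were bright in every group, with summed intensities of 6 measured chief cell markers between 150643 and 262816 and of 6 measured parietal cell markers between 99895 and 182962, and 0 of them lay within the noise in any group. The double knockout had the lowest chief cell sum (150643 to 160675 against 209782 to 262816 elsewhere) and the lowest surface mucous cell sum over 4 of 4 markers (230962 to 247640 against 317458 to 393591). Parietal cell sums were 99895 to 111895 in the double knockout and 102010 to 123742 in the saline-infused knockout, against 150272 to 182962 in the other groups. These chief and surface mucous cell sums come mostly from the brightest probe sets of the array, such as Pgc (57602 to 61143 in the double knockout and 87548 to 106820 elsewhere), in the range where the double knockout's scale was lower. Pga5, a chief cell marker of lower intensity, gave 11861, 12120 and 11495 in the double knockout and 11977, 12499 and 10711 in the wild type, which overlapped. The other 5 of the 6 chief cell markers were lower in the double knockout than in the wild type without overlap. Over all genes these groups did not overlap for 24.3%, in either direction. The 5 markers included Bhlha15 (1679, 1625 and 1442 against 2466, 2087 and 1910) and Amy1 (218, 214 and 150 against 312, 260 and 243), both dimmer than Pga5. In RNA from whole scrapings, fewer cells of a type and less RNA per cell cannot be told apart. Markers such as Pgc lie above the 99.9th percentile, so the lower scale and the lower sums are not separate observations. How far they enter the values of the ER genes was not tested, beyond refits with other scalings given below.

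Most of these ER genes varied little between the groups. The highest group mean of a gene was 1.11 to 2.08 times its lowest, with a median of 1.25 and with 31 of 37 genes under 1.5. Over the 8313 genes whose intensity was at or above that of the dimmest of the 37, the median of this ratio was 1.28. These 8313 are the genes called as bright below, and they are not matched in intensity to the 37. The cut was a mean of 295, while the median mean of the 37 was 3531. The median SE of a log2 difference was 0.143 over the 8313 and 0.125 over the 37. Among the 37, the largest ratios belonged to Pdia4 (2.08), Sel1l (1.60), Atf4 (1.59), Sec61a1 (1.57), Ddit3 (1.52) and Edem1 (1.52). A moderated F test over the 4 groups, in the limma fit with Benjamini-Hochberg adjustment over 22626 probe sets, called Pdia4 (adjusted p = 0.0163) and Sel1l (adjusted p = 0.0362), that is 2 of 37, where 7.71% of all genes were called. Signal was ample, since none of the 37 lay within the noise of any array and 36 lay at or above the median probe set. The spread between arrays of a group had a median SD of 0.15 on the log2 scale and a range of 0.09 to 0.33.

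**Figure D1:**
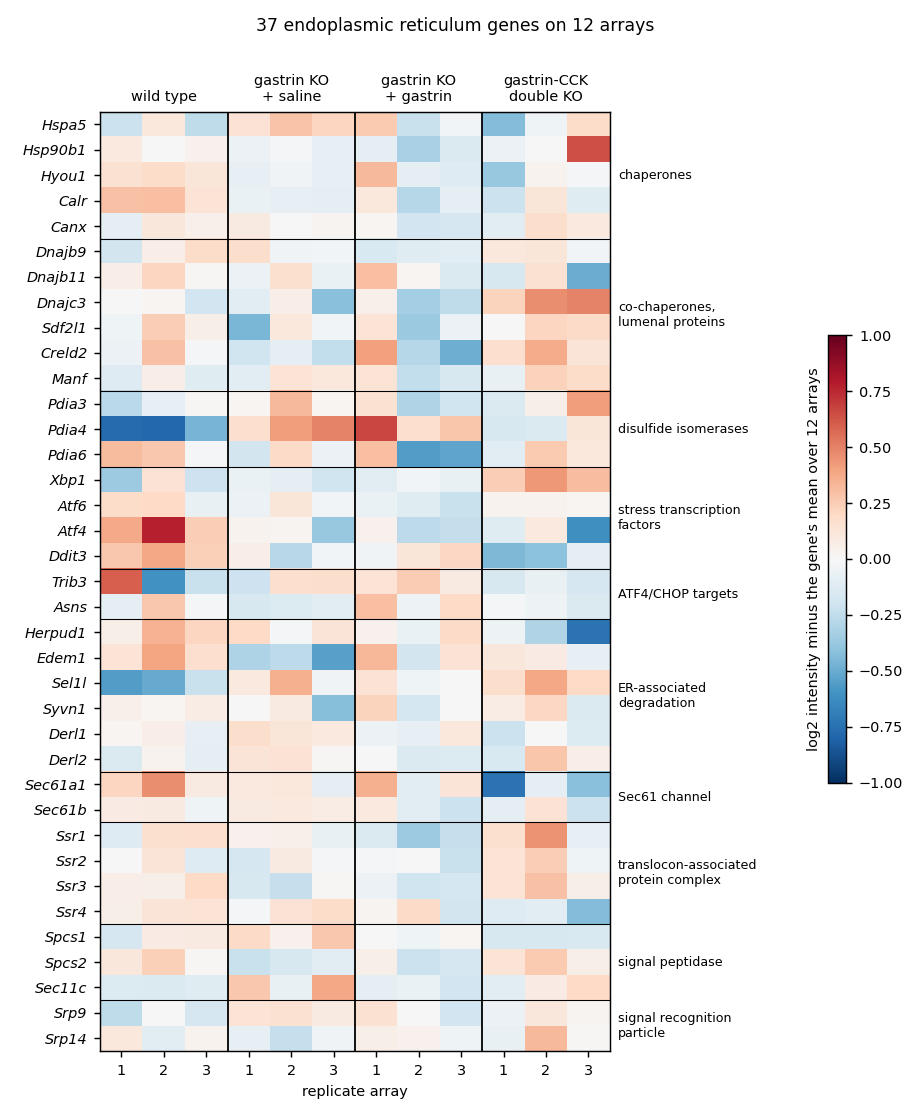
Log2 intensity of each of the 37 genes (vertical, grouped by role) on each of the 12 arrays (horizontal, 3 per group), as the difference from the gene's mean over the 12 arrays; red is above that mean and blue below. Pdia4 is low on the 3 wild-type arrays, Atf4 is high on them, and most other genes show no block of colour that fills a group.

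The first comparison asks what loss of gastrin does to these genes, by setting the saline-infused knockout against the wild type. Of the 37 genes, 1 was higher (Pdia4, a disulfide isomerase) and 0 were lower at an adjusted p under 0.05 (limma), while 0.807% of all genes were called higher, 1.46% lower and 2.27% in either direction. The unadjusted 95% interval excluded 0 for 10 of the 37 (27%), against 18.7% of all genes and 22.7% of those at least as bright as the dimmest of the 37. The median log2 difference of the 37 was -0.09, against 0.00 for all genes, with 15 above 0 and 22 below and a range of -0.60 to 1.03. The 3 arrays of a group lay wholly above or below those of the other for 17 of 37 genes (7 higher and 10 lower in the knockout), where the groups did not overlap for 24.8% of all genes and for 29.8% of those as bright. For 24 of the 37 the 95% interval lay within 1.5-fold in either direction, and for 35 within 2-fold, which held for 58% and 90.3% of the genes as bright.

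The second comparison asks what 1 week of gastrin does to knockout mice, against saline. None of the 37 genes was called by limma, where 1.42% of all genes were (0.896% higher and 0.524% lower), and 3 had an unadjusted interval that excluded 0, against 17.0% of all genes and 20.4% of those as bright. These were Edem1 and Asns on the side of gastrin and Sec11c on the side of saline. The median log2 difference was -0.05, against 0.00 for all genes, and the range was -0.31 to 0.47. The groups did not overlap for 8 of 37 genes, 2 higher and 6 lower with gastrin, against 21.7% of all genes. For 31 of the 37 the interval of the difference lay within 1.5-fold, and for all 37 within 2-fold. An interval within 2-fold was found for 90.4% of the genes as bright and for 71.7% of all genes, dim ones included. In the same comparison 5 of 6 parietal cell markers and 2 of 3 enterochromaffin-like cell markers were called higher with gastrin.

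The third comparison sets the double knockout against the wild type. Sel1l, a scaffold of ER-associated degradation, was higher and Ddit3, which encodes CHOP, was lower, that is 1 gene in each direction, where 1.77% of all genes were called higher, 2.12% lower and 3.89% in either direction. The median log2 difference of the 37 was 0.03 against 0.00 for all genes, the range was -0.68 to 0.68, and 20 lay above 0 and 17 below. The unadjusted interval excluded 0 for 10 of the 37, against 19.3% of all genes and 23.3% of those as bright. The groups did not overlap for 13 of 37 genes (5 higher, 8 lower), against 24.3% of all genes and 28.2% of those as bright. Against the saline-infused knockout, none of the 37 passed in the double knockout where 5.56% of all genes did (2.90% higher and 2.66% lower). Of the 37, 11 had an unadjusted interval that excluded 0, against 21.8% of all genes and 27.3% of those as bright, the median was 0.01 and 11 did not overlap, against 25.8% of all genes. Between the gastrin-infused knockout and the wild type none of the 37 passed, where 0.137% of all genes did. Of the 37, 8 had an unadjusted interval that excluded 0, against 11.1% of all genes and 12.4% of those as bright, the median was -0.11 with 9 above 0 and 28 below, and 8 did not overlap, against 16.9% of all genes. Each group's arrays serve in more than 1 of the 5 comparisons, so the comparisons are not independent. The double knockout was not compared with the gastrin-infused group, and a gene's largest difference is named among these 5 comparisons.

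**Figure D2:**
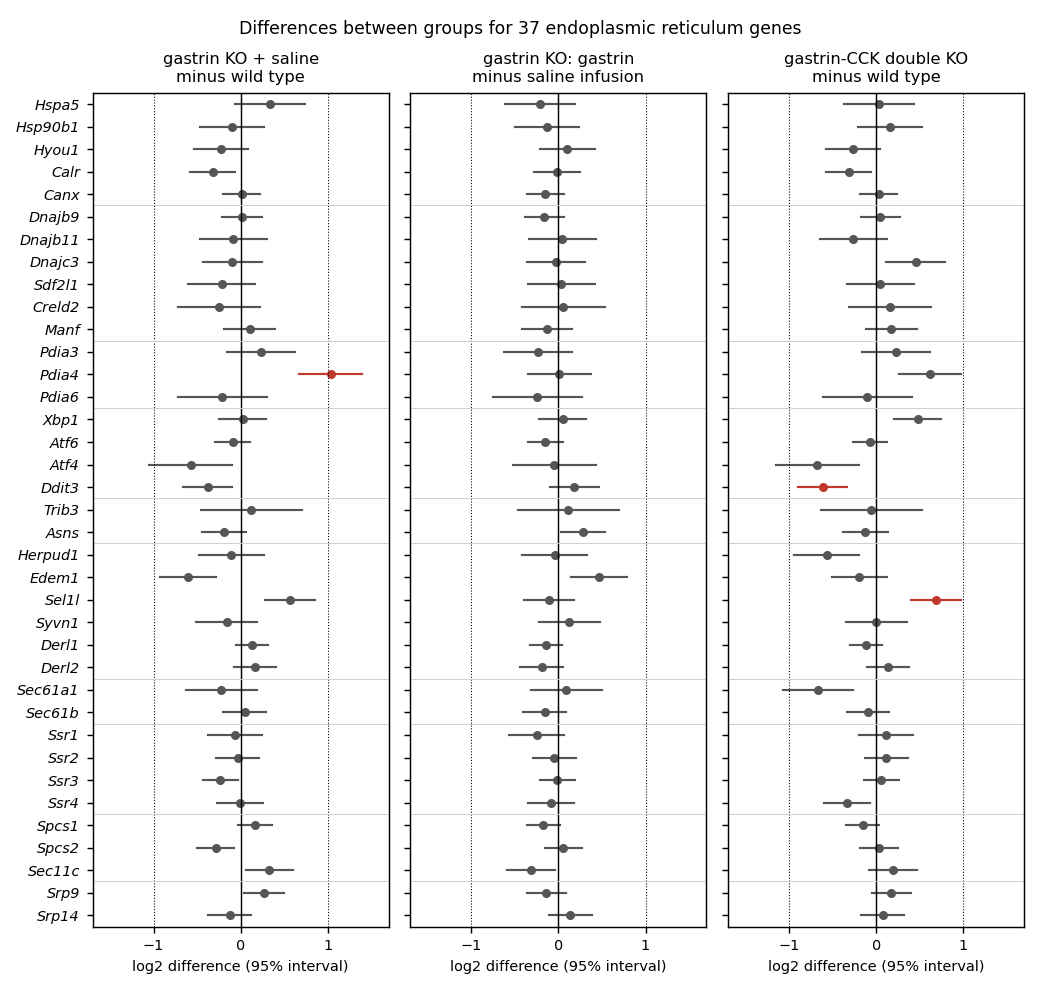
Log2 difference of group means for each of the 37 genes, with the 95% interval of the limma fit, in 3 comparisons; red marks an adjusted p under 0.05 and dotted lines mark 2-fold. Pdia4 is red in the first panel, no gene is red in the second, and Ddit3 and Sel1l are red in the third.

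Of the transcription factors of the unfolded protein response, Ddit3 was lower in the double knockout than in the wild type. CHOP is the factor tied to cell death after prolonged stress. The intensity of Ddit3 was 592, 642 and 578 on the wild-type arrays, 513, 404 and 481 with saline, 478, 533 and 567 with gastrin, and 359, 370 and 461 in the double knockout. All 9 knockout arrays lay below all 3 wild-type arrays, and the double knockout held the 2 lowest. The mean of the double knockout was 397 ± 56.0 against 604 ± 33.6 (SD, n = 3 each), a log2 difference of -0.61 ± 0.12 (SE) and a fold of 0.65 with a 95% interval of 0.54 to 0.79 (limma, adjusted p = 0.0347). The other groups differed from the wild type by -0.38 (saline, adjusted p = 0.159) and -0.20 (gastrin, adjusted p = 0.589) on the log2 scale. The call was lost, with adjusted p between 0.0666 and 0.0998, when any of the 3 wild-type arrays or array 1 or array 2 of the double knockout was left out, and it remained without array 3 (adjusted p = 0.0270). It was also lost with the replicate number as a block (adjusted p = 0.053), with the Gapdh ratio in the model (adjusted p = 0.057), without wild-type arrays 1 and 2 together (-0.55, adjusted p = 0.311) and with only these 2 groups in the fit (adjusted p = 0.107).

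Atf4, the factor made when PERK or other kinases slow translation, gave 6252, 8248 and 5691 on the wild-type arrays, 4924, 4900 and 3692 with saline, 4948, 4003 and 4071 with gastrin, and 4422, 5148 and 3147 in the double knockout. All 9 knockout arrays again lay below all wild-type arrays, but the arrays within a group were spread widely. The log2 differences from the wild type were -0.57 ± 0.21 (saline, adjusted p = 0.203), -0.62 ± 0.21 (gastrin, adjusted p = 0.324) and -0.68 ± 0.21 (double knockout, adjusted p = 0.117), and none passed. Another Atf4 probe set (1438992_x_at) gave 2123, 1812 and 1753 on the wild-type arrays, 2547, 2092 and 2009 with saline, 1356, 1323 and 1743 with gastrin, and 1504, 1885 and 1737 in the double knockout. On it the gastrin arrays again lay below the wild type, the double knockout overlapped the wild type, and the saline group had the highest mean. Atf6, the membrane-bound sensor, differed most between the gastrin-infused knockout and the wild type (-0.24 ± 0.09, adjusted p = 0.348), and none of its differences passed.

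Downstream of ATF4 and CHOP, Asns (asparagine synthetase) and Trib3 (a pseudokinase) did not pass in any comparison. Asns gave 6746, 8633 and 7083 on the wild-type arrays, 6420, 6531 and 6633 with saline, 8820, 6910 and 8239 with gastrin, and 7057, 6935 and 6488 in the double knockout. The 3 gastrin arrays lay above the 3 saline arrays, by 0.28 ± 0.11 on the log2 scale (adjusted p = 0.257). On the other Asns probe set (1433966_x_at) gastrin and saline overlapped (3584, 3037 and 3658 against 3116, 2922 and 3010). Trib3 ran from 190 to 437 within the wild type alone, so its intervals were the widest of the 37, with an SE of 0.26.

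Xbp1, the factor activated by IRE1 and needed for the growth of the secretory apparatus, was read by 4 probe sets that did not show the same pattern. The brightest (1437223_s_at) gave 11657, 16625 and 13035 on the wild-type arrays, 14387, 14068 and 13103 with saline, 14007, 14734 and 14247 with gastrin, and 17870, 20314 and 18602 in the double knockout. The double knockout arrays were the 3 highest of the 12, by 0.47 ± 0.12 over the wild type (adjusted p = 0.0624) and 0.45 ± 0.12 over the saline group (adjusted p = 0.0612), which missed the threshold. On 1420886_a_at the wild-type arrays gave 7431, 10764 and 9041, the saline arrays 7676, 8341 and 7255, the gastrin arrays 8968, 9169 and 8434, and the double knockout arrays 17151, 19443 and 15886. The double knockout stood clear of the 9 other arrays, and the log2 difference was 0.96 ± 0.13 against the wild type (fold 1.94, 95% interval 1.58 to 2.39, adjusted p = 0.00918) and 1.17 ± 0.13 against saline (fold 2.25, 95% interval 1.83 to 2.77, adjusted p = 0.00361). On 1420011_s_at the same differences were -0.06 (adjusted p = 0.719) and 0.17 (adjusted p = 0.231). On 1420012_at, the dimmest, the double knockout was lower than saline by -0.88 ± 0.22 (adjusted p = 0.0468). Leaving out an array kept that call in 1 of 6 fits, and both calls on 1420886_a_at in 6 of 6. The files do not say which Xbp1 transcript form each probe set reads.

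The lumenal chaperones hold nascent chains until they fold. Hspa5 encodes BiP, the ER member of the heat shock 70 family, Hsp90b1 encodes GRP94, Hyou1 a nucleotide exchange factor of BiP, and Calr and Canx the lectin chaperones calreticulin and calnexin. None of these 5 genes was called in any comparison. Calr gave 18451, 18521 and 16562 on the wild-type arrays, 14397, 14203 and 14166 with saline, 16178, 12320 and 14065 with gastrin, and 12932, 16325 and 13857 in the double knockout. All wild-type arrays lay above the 9 others, with log2 differences of -0.32 ± 0.12 (saline, adjusted p = 0.189), -0.34 ± 0.12 (gastrin, adjusted p = 0.323) and -0.32 ± 0.12 (double knockout, adjusted p = 0.171).

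Hspa5, the usual gauge of ER stress, gave 9550, 11924 and 9306 on the wild-type arrays, 12232, 13511 and 12885 with saline, 13331, 9492 and 10868 with gastrin, and 8230, 10780 and 12616 in the double knockout. The saline arrays lay above the wild-type arrays, by 0.34 ± 0.18 on the log2 scale (95% interval 0.96- to 1.67-fold, adjusted p = 0.360), and the other groups overlapped both. On the other Hspa5 probe set (1427464_s_at) saline and wild type overlapped (4533, 4629 and 5337 against 4640, 4709 and 4633). Hsp90b1 ranged from 5075 to 6780 on 11 arrays and reached 9930 on array 3 of the double knockout, so that group's SD was 2138. Hyou1 lay between 2849 and 2974 in the wild type and between 2468 and 2547 with saline, without overlap and without passing (-0.22 ± 0.14, adjusted p = 0.444). A further Hyou1 probe set (1423290_at) gave 1295, 1341 and 1394 in the wild type and 1280, 1301 and 1579 with saline, which overlapped. Among the 5 comparisons Canx differed most between gastrin and saline (-0.15 ± 0.09, adjusted p = 0.496).

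Co-chaperones and small lumenal proteins that the stress response induces gave no call on their brightest probe sets. Manf, a secreted and lumenal neurotrophic factor, gave 3922, 4490 and 3937 on the wild-type arrays, 3964, 4703 and 4608 with saline, 4715, 3612 and 3848 with gastrin, and 4065, 5029 and 4861 in the double knockout, and every pair of groups overlapped. Dnajc3, a J-domain partner of BiP also called P58IPK, gave 2272, 2298 and 1995, then 2107, 2379 and 1701, then 2354, 1794 and 1903, and in the double knockout 2647, 3131 and 3214, in the same order of groups. The double knockout arrays were the 3 highest, by 0.45 ± 0.15 over the wild type (adjusted p = 0.136) and 0.55 ± 0.15 over saline (adjusted p = 0.0662). A dimmer Dnajc3 probe set (1449373_at) gave 236, 180 and 243 on the wild-type arrays and 389, 338 and 430 in the double knockout, a log2 difference of 0.82 ± 0.19 (adjusted p = 0.0486), and 1.03 ± 0.19 over saline (adjusted p = 0.0183). Leaving out an array kept these calls in 0 of 6 and 2 of 6 fits. A further one (1419163_s_at) was higher than saline by 0.75 ± 0.15 (adjusted p = 0.0254, kept in 0 of 6 such fits), while 1449372_at and 1419162_s_at differed by -0.06 and -0.13 and were not called.

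The other 4 genes of this kind were Dnajb9 and Dnajb11, J-domain co-chaperones of BiP, Sdf2l1, a partner of Dnajb11, and Creld2, a small lumenal protein with a disulfide isomerase activity. Dnajb9 ranged from 2156 to 2776 over the 12 arrays, Dnajb11 from 1531 to 2664, Sdf2l1 from 997 to 1623 and Creld2 from 719 to 1347. For all 4 the largest difference was 0.40 on the log2 scale, for Creld2 between the double knockout and saline (adjusted p = 0.313).

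The stress response acts on many of these genes through a promoter element, and the upstream sequence is shown here so that this element can be set beside the values of the genes that carry it. The ER stress response element (ERSE), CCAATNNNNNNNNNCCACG, joins a CCAAT box, which NF-Y binds, to CCACG, which ATF6 and XBP1 bind, and ERSE-II is ATTGGNCCACG. The 250 bases before the start site of RefSeq's mouse annotation (GRCm38.p6) were searched on both strands for exact letters. ERSE was found in 8 of the 31 listed genes with an entry (25.8%) and in 0.13% of 27025 genes with an entry, and ERSE-II in 1 (3.23%) and in 0.037%. The boxes CCAAT and CCACG are part of both elements and far more common: CCAAT was found in 71% of the 31 genes and 37.5% of all, and CCACG in 67.7% and 31%. The genes with ERSE were Hspa5, Hsp90b1, Calr, Canx, Dnajc3, Creld2, Pdia6 and Syvn1, and the gene with ERSE-II was Herpud1. The whole upstream window of Hspa5 (chr2:34771840-34772089, plus strand) is given first, followed by windows cut around each element, all 5′ to 3′ on the gene's strand with the element, or its reverse complement, in capitals.
Hspa5: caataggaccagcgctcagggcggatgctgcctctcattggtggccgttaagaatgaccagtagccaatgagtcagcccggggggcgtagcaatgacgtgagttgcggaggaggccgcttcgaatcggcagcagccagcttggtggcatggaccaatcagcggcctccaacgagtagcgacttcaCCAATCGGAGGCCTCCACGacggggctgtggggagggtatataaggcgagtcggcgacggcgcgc
Hsp90b1, chr10:86705630-86705664, minus strand: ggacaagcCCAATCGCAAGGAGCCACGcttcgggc
Hsp90b1, chr10:86705525-86705559, minus strand: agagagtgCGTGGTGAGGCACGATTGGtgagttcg
Calr, chr8:84847067-84847101, minus strand: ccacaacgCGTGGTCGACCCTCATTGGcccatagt
Canx, chr11:50325792-50325826, minus strand: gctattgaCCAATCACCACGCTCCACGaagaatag
Dnajc3, chr14:118937819-118937853, plus strand: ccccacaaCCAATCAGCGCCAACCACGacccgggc
Creld2, chr15:88819512-88819546, plus strand: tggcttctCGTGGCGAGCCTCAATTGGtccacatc
Pdia6, chr12:17266483-17266517, plus strand: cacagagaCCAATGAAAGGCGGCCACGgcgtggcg
Syvn1, chr19:6046524-6046558, plus strand: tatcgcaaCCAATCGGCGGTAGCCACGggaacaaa
Herpud1 (ERSE-II), chr8:94386369-94386395, plus strand: gggcgctgATTGGGCCACGttggacac

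None of the 8 genes with ERSE was called in any of the 5 comparisons, on the brightest probe set. Their median log2 difference was -0.13 in the saline-infused knockout against the wild type, -0.08 with gastrin against saline, 0.03 in the double knockout against the wild type, 0.13 in the double knockout against saline, and -0.17 in the gastrin-infused knockout against the wild type. For the 22 measured genes with an entry and no ERSE the medians were, in the same order, -0.03, -0.03, 0.04, -0.02 and -0.07. The difference between the medians of the 2 sets was not tested. A match to the letters is a description of the sequence and not of binding, and no match says only that the letters are not in this window.

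Protein disulfide isomerases form and rearrange disulfide bonds, and among them Pdia4 (ERp72) gave the largest difference of the 37 genes. Its intensity was 996, 981 and 1230 on the wild-type arrays, 1906, 2263 and 2389 with saline, 2698, 1903 and 2054 with gastrin, and 1515, 1535 and 1841 in the double knockout. All 9 knockout arrays lay above the 3 wild-type arrays, and the double knockout arrays lay between the wild type and the saline group without overlapping either. The saline-infused knockout averaged 2186 ± 251 against 1069 ± 140 (SD, n = 3 each), a log2 difference of 1.03 ± 0.16 and a fold of 2.05 with a 95% interval of 1.60 to 2.62 (limma, adjusted p = 0.0192). The gastrin-infused knockout differed from the wild type by 1.04 ± 0.16 (adjusted p = 0.0577), and the double knockout by 0.61 ± 0.16 (fold 1.53, 95% interval 1.19 to 1.96, adjusted p = 0.0676), both short of the threshold. Between gastrin and saline the difference was 0.01 ± 0.16, with an interval of 0.79- to 1.29-fold.

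The Pdia4 call was lost when wild-type array 1 (adjusted p = 0.0508) or array 2 (adjusted p = 0.0698), or saline array 2 (adjusted p = 0.0560) or array 3 (adjusted p = 0.0588), was left out, and when the Gapdh ratio was added to the model (0.89, adjusted p = 0.0842). Without wild-type arrays 1 and 2 together the difference was 0.82 (adjusted p = 0.227), and with only these 2 groups in the fit the adjusted p was 0.0929. A dim further probe set of Pdia4 (1450620_at) spanned 27 to 199 in the wild type and gave 1.13 ± 0.68 (adjusted p = 0.431). The last 150 bases before the Pdia4 start site (chr6:47813513-47813662, minus strand) held 2 CCAAT boxes, in capitals, and no CCACG, and the whole window held no ERSE.
Pdia4: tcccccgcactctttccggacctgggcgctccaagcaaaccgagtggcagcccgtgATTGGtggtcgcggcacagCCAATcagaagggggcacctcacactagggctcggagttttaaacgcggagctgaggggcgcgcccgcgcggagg

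The other disulfide isomerases did not pass in any comparison. Pdia3 (ERp57), which works with calnexin and calreticulin on glycoproteins, gave 6414, 7303 and 7800 on the wild-type arrays, 7847, 9679 and 7816 with saline, 8574, 6273 and 6730 with gastrin, and 7005, 8046 and 10306 in the double knockout. The saline arrays lay just above the wild-type arrays, by 0.23 ± 0.17 (adjusted p = 0.524). Pdia6 (P5) differed most between the gastrin-infused knockout and the wild type (-0.45 ± 0.23, adjusted p = 0.493).

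**Figure D3:**
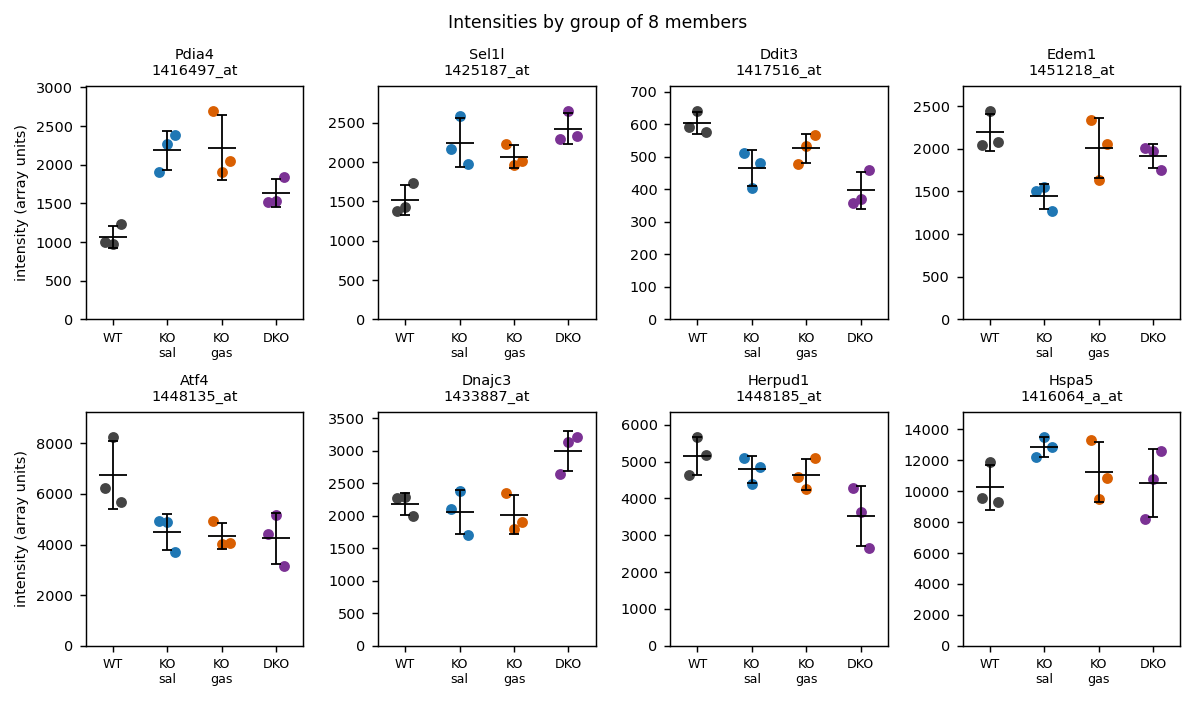
Intensity in array units of 8 of the genes in the 4 groups (WT, wild type; KO sal and KO gas, gastrin knockout with saline and gastrin; DKO, double knockout), with 1 point per array and the mean ± SD, each axis starting at 0. The wild-type points lie below all others for Pdia4 and Sel1l and above all others for Ddit3 and Atf4, and Hspa5 overlaps between most groups.

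In ER-associated degradation, Sel1l holds the ubiquitin ligase Syvn1 (HRD1) in the membrane. Its brightest probe set (1425187_at) gave 1376, 1432 and 1733 on the wild-type arrays, 2169, 2591 and 1981 with saline, 2234, 1962 and 2018 with gastrin, and 2289, 2654 and 2331 in the double knockout. All 9 knockout arrays lay above the wild type. The saline group overlapped both other knockout groups, and the gastrin arrays lay below the double knockout arrays. The double knockout averaged 2425 ± 199.7 against 1514 ± 192 (SD, n = 3 each), a log2 difference of 0.68 ± 0.13 and a fold of 1.61 with a 95% interval of 1.32 to 1.95 (limma, adjusted p = 0.0241). The saline group differed from the wild type by 0.57 ± 0.13 (adjusted p = 0.0561) and the gastrin group by 0.46 ± 0.13 (adjusted p = 0.253). The call was lost when wild-type array 1 (adjusted p = 0.0765) or array 2 (0.0736), or double knockout array 1 (0.0558), array 2 (0.0614) or array 3 (0.0563), was left out. Without wild-type arrays 1 and 2 together the difference was 0.48 (adjusted p = 0.308), and with only these 2 groups in the fit the adjusted p was 0.0965.

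The next Sel1l probe set (1425188_s_at) set the double knockout apart. It gave 1676, 1501 and 1672 on the wild-type arrays, 1759, 1529 and 1727 with saline, 1703, 1690 and 1684 with gastrin, and 2885, 2610 and 2665 in the double knockout. The 3 double knockout arrays stood above 9 arrays that overlapped one another, with log2 differences of 0.75 ± 0.08 against the wild type (fold 1.68, 95% interval 1.49 to 1.90, adjusted p = 0.00265) and 0.70 ± 0.08 against saline (adjusted p = 0.00341). The saline group differed from the wild type by 0.05 ± 0.08 on it (adjusted p = 0.807). Both calls on this probe set were kept whichever single array was left out. The other 2 Sel1l probe sets, both dimmer, were not called. The last 150 bases before the Sel1l start site (chr12:91849158-91849307, minus strand) held 3 CCAAT boxes, all as the reverse complement and in capitals, and those before Ddit3 (chr10:127290643-127290792, plus strand) held 1.
Sel1l: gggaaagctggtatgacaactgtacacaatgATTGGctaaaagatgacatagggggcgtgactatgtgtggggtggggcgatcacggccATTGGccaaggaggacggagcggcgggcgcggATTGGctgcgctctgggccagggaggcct
Ddit3: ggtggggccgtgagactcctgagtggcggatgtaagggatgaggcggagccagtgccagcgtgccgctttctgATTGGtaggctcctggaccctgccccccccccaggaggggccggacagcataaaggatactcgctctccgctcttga

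Edem1, a lectin that directs misfolded glycoproteins to degradation, gave 2047, 2447 and 2085 on the wild-type arrays, 1504, 1552 and 1272 with saline, 2337, 1634 and 2055 with gastrin, and 2014, 1972 and 1754 in the double knockout. The saline arrays were the 3 lowest of the 12. The differences missed the threshold, at -0.60 ± 0.14 against the wild type (fold 0.66, 95% interval 0.53 to 0.82, adjusted p = 0.0665) and 0.47 ± 0.14 for gastrin against saline (adjusted p = 0.148). A further Edem1 probe set (1424065_at) gave -0.33 ± 0.15 (adjusted p = 0.300) and 0.24 ± 0.15 (adjusted p = 0.508).

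Herpud1, a membrane protein that recruits the degradation machinery, gave 4637, 5666 and 5167 on the wild-type arrays, 5104, 4395 and 4863 with saline, 4579, 4251 and 5096 with gastrin, and 4292, 3618 and 2662 in the double knockout. The double knockout arrays lay below those of the wild type, by -0.57 ± 0.17 (adjusted p = 0.0926), and on the other Herpud1 probe set (1435626_a_at) the difference was 0.04 ± 0.15 (adjusted p = 0.943). Syvn1 ranged from 1959 to 3071 over the 12 arrays. Of the derlins, candidates for the exit channel, Derl1 differed most in the double knockout against saline (-0.25 ± 0.08, adjusted p = 0.101), and Derl2 in gastrin against saline (-0.19 ± 0.11, adjusted p = 0.437).

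At the channel itself, Sec61a1 encodes the pore-forming subunit. Its brightest probe set (1416189_a_at) gave 5497, 6523 and 5032 on the wild-type arrays, 5056, 5094 and 4435 with saline, 6058, 4394 and 5177 with gastrin, and 2840, 4451 and 3538 in the double knockout. The double knockout lay below the wild type on every array but did not pass (-0.67 ± 0.18, adjusted p = 0.0752). On the next probe set (1448242_at) the wild-type arrays gave 5587, 5945 and 5486 and the double knockout arrays 3939, 3833 and 3819, with the other groups between 4201 and 5133. The double knockout was lower there by -0.55 ± 0.08 (fold 0.68, 95% interval 0.60 to 0.77, adjusted p = 0.0109), a call kept whichever single array was left out. It was also lower on 1434986_a_at, by -0.96 ± 0.18 (adjusted p = 0.0267), and that call was kept in only 1 of 6 fits that left out an array.

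Of the other 3 Sec61a1 probe sets, 1416191_at gave 1324, 799 and 3968 on wild-type arrays 1 to 3 and 2008 to 2979 elsewhere. The 2 low wild-type values were on the arrays with the high Gapdh ratio, and 1416190_a_at shared the pattern, with 481, 254 and 1421. Those probe sets gave differences above 0 for the double knockout against the wild type (0.47 ± 0.46 and 0.33 ± 0.49), which were not called. Sec61b, a small subunit of the channel, gave 8496, 8567 and 7787 on the wild-type arrays, 8563, 8602 and 8465 with saline, 8611, 7494 and 6920 with gastrin, and 7497, 8907 and 6940 in the double knockout, with no pair of groups apart.

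**Figure D4:**
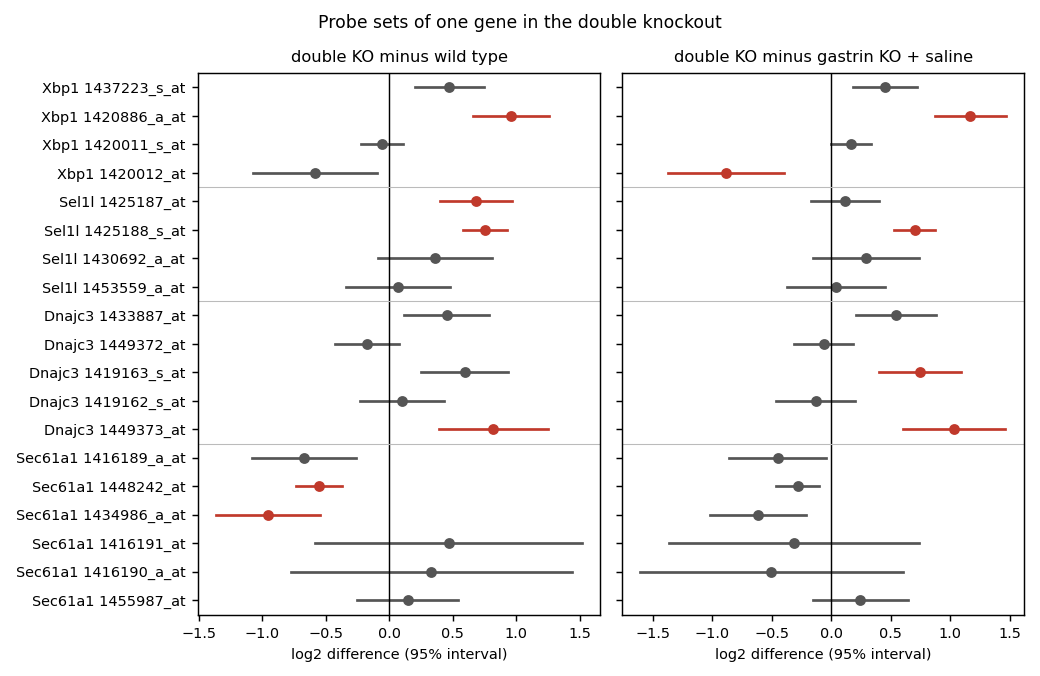
Log2 difference with the 95% interval for every probe set of Xbp1, Sel1l, Dnajc3 and Sec61a1 in the double knockout, against the wild type (left) and the saline-infused gastrin knockout (right); red marks an adjusted p under 0.05. Within each gene, probe sets called red stand beside others near 0 or on the other side of it.

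Over the 46 probe sets that were not the brightest of their gene, 0 were called in the comparison of saline with wild type, of gastrin with saline and of gastrin with wild type, with unadjusted intervals that excluded 0 for 8, 6 and 9 of them, against 4038, 3613 and 2619 of all 22626 probe sets (17.8% in the first and 11.6% in the last). In the double knockout 5 of 46 were called against the wild type (3 higher and 2 lower) and 5 against saline (4 higher and 1 lower), where 4.14% and 5.98% of all probe sets were. These were the Xbp1, Sel1l, Dnajc3 and Sec61a1 probe sets described above. Without wild-type arrays 1 and 2 together, the 5 calls against the wild type were lost, with log2 differences of 0.95 for Xbp1 (adjusted p = 0.053), 0.70 for Sel1l (0.0578), 0.66 for Dnajc3 (0.38), and -0.51 (0.16) and -1.03 (0.215) for Sec61a1. Between the 2 brightest probe sets of the 24 genes that had them, the sign of the difference was shared by 16 or 17 genes, depending on the comparison.

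The translocon-associated protein (TRAP) complex, encoded by Ssr1 to Ssr4, sits beside Sec61 and helps some chains to enter. Ssr4 gave 10091, 10601 and 10678 on the wild-type arrays, 9580, 10750 and 11020 with saline, 9891, 11071 and 8565 with gastrin, and 8877, 8955 and 7196 in the double knockout. The double knockout arrays lay below both the wild type and saline, by -0.33 ± 0.12 in each case (adjusted p = 0.157 and 0.139). Ssr3 was placed the other way, above saline by 0.29 ± 0.09 in the double knockout (adjusted p = 0.0946). On the dimmer Ssr4 probe sets 1435709_at and 1427096_s_at the double knockout overlapped both the wild type and saline. Ssr1 and Ssr2 differed from the wild type by at most 0.12 in the double knockout. With gastrin, Ssr1 (3756 to 4391) lay below the wild type (4420 to 5443) and saline (4601 to 5009). A further Ssr1 probe set (1417764_at) was placed likewise (2354 to 2459 against 2981 to 3550 and 2922 to 3534). On the dimmest (1448843_at) the gastrin arrays overlapped both groups. None of the 4 genes passed in any comparison.

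Signal peptidase removes the signal peptide. Its subunit Spcs1 gave 7137, 8462 and 8531 on the wild-type arrays, 9130, 8242 and 9654 with saline, 8000, 7757 and 8139 with gastrin, and 7171, 7162 and 7204 in the double knockout. The double knockout arrays lay below the saline arrays by -0.32 ± 0.08 (adjusted p = 0.0586). Spcs2 lay above saline in the double knockout by 0.32 ± 0.09 (adjusted p = 0.0886), and neither passed the test. On the other Spcs2 probe set (1450907_at) saline and the double knockout overlapped (2840, 2705 and 2725 against 2906, 3257 and 2476). A further Spcs1 probe set (1448258_a_at) gave 6482, 6947 and 6794 with saline and 6765, 6734 and 6915 in the double knockout, which overlapped. On both of these Spcs1 probe sets the gastrin arrays lay below the saline arrays, without a call (4944, 6376 and 5660 with gastrin on 1448258_a_at). On the dim Spcs1 probe set 1427500_at gastrin lay above saline (111, 128 and 162 against 48, 24 and 94), also without a call. Sec11c, a catalytic subunit, gave 1994, 1985 and 2014 on the wild-type arrays, 2642, 2086 and 2864 with saline, 2043, 2097 and 1914 with gastrin, and 2033, 2316 and 2517 in the double knockout. The saline arrays lay above the wild type, by 0.33 ± 0.12 (adjusted p = 0.199).

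Srp9 and Srp14 form the Alu domain of the signal recognition particle, which pauses translation. Srp14 gave 4243, 3672 and 4038 on the wild-type arrays, 3730, 3374 and 3847 with saline, 4117, 4060 and 3837 with gastrin, and 3744, 4931 and 3980 in the double knockout, and no pair of groups was apart. Srp9 gave 2942, 3514 and 3126, then 3870, 3903 and 3740, then 3914, 3511 and 3078, then 3380, 3799 and 3590, in the same order. The saline arrays lay above the wild type, by 0.27 ± 0.10 (adjusted p = 0.207). On the other Srp9 probe set (1448753_at) saline and wild type overlapped (2408, 2777 and 2613 against 2366, 2780 and 2285).

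A wider list of the pathway held 79 further genes, 74 of them measured. Each of these was read on its brightest probe set only, and where a gene had further probe sets their values were not examined. In the saline-infused knockout 4 of the 74 were lower than in the wild type and 0 were higher, where 1.46% of all genes were called lower and 0.807% higher. The median log2 difference of the 74 was -0.10, with 24 above 0 and 50 below. The 4 were Edem2, which starts the trimming of mannose on misfolded glycoproteins (-0.74 ± 0.09, adjusted p = 0.0101), Ganab and Prkcsh, the subunits of glucosidase II (-0.54 ± 0.09, adjusted p = 0.0279, and -0.40 ± 0.07, adjusted p = 0.0301), and Sec31a, a coat protein of vesicles that leave the ER (-0.51 ± 0.10, adjusted p = 0.0434). The Ganab, Prkcsh and Sec31a calls were kept in 2, 1 and 0 of 6 fits that left out an array, and the Edem2 call in 6 of 6. Without wild-type arrays 1 and 2 together only the Edem2 call of these 4 remained.

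Edem2 was the only one of the 74 called with gastrin against saline, where 1.42% of all genes were. It gave 2677, 2952 and 3225 on the wild-type arrays, 1808, 1622 and 1862 with saline, 2741, 2812 and 2888 with gastrin, and 1893, 1828 and 1630 in the double knockout. The wild-type and gastrin arrays lay above all arrays of the groups without gastrin. Gastrin-infused mice averaged 2814 ± 73.5 against 1764 ± 126 (SD, n = 3 each), a log2 difference of 0.68 ± 0.09 and a fold of 1.60 with a 95% interval of 1.38 to 1.84 (limma, adjusted p = 0.0193). That call was kept in 3 of 6 fits that left out an array, with adjusted p up to 0.0591. The summed parietal cell markers were ordered likewise over the groups, and their part in this value was not tested.

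In the double knockout 1 of the 74 genes was higher and 4 were lower than in the wild type, where 1.77% of all genes were called higher and 2.12% lower. Ern2, the IRE1 paralogue of mucosal epithelia, rose from 1299, 1542 and 1426 to 2253, 2395 and 2324 (0.71 ± 0.11, adjusted p = 0.0136), while the infused groups lay between 1160 and 1575. The lower genes were Edem2 (-0.73 ± 0.09, adjusted p = 0.00682), Surf4, a cargo receptor (-0.66 ± 0.11, adjusted p = 0.0156), Kdelr2, which returns escaped chaperones to the ER (-0.36 ± 0.08, adjusted p = 0.0419), and Ppib, a prolyl isomerase (-0.33 ± 0.07, adjusted p = 0.0387). The Kdelr2 and Ppib calls were kept in 1 and 0 of 6 fits that left out an array, and the Ern2, Edem2 and Surf4 calls in 6 of 6. With quantile normalization the difference was -0.10 for Ppib (adjusted p = 0.53) and -0.23 for Kdelr2 (adjusted p = 0.0393). What made them smaller was not tested. Without wild-type arrays 1 and 2 together only the Edem2 call of these 5 remained.

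Against saline, 4 of the 74 were higher in the double knockout and 4 lower, where 2.90% of all genes were called higher and 2.66% lower. The higher genes were Ganab (0.71 ± 0.09, adjusted p = 0.00606), Ern2 (0.69 ± 0.11, adjusted p = 0.0110), Creb3l2, an ER-bound transcription factor (0.65 ± 0.16, adjusted p = 0.0460), and Prkcsh (0.30 ± 0.07, adjusted p = 0.0415). The lower genes were Kdelr2 (-0.46 ± 0.08, adjusted p = 0.0136), Stt3a, a catalytic subunit of oligosaccharyltransferase (-0.43 ± 0.08, adjusted p = 0.0195), Surf4 (-0.43 ± 0.11, adjusted p = 0.0495), and Sar1b, the GTPase of coat assembly (-0.39 ± 0.08, adjusted p = 0.0308). The Creb3l2, Prkcsh, Surf4 and Sar1b calls were kept in 1, 0, 0 and 1 of 6 fits that left out an array, and that of Stt3a in 3. With quantile normalization the Kdelr2 difference was -0.27 (adjusted p = 0.0184). Between gastrin-infused and wild-type mice 0 of the 74 were called by limma, with a median of -0.13 and with 14 at an unadjusted p under 0.05, against 11.1% of all genes and 12.4% of those as bright.

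**Figure D5:**
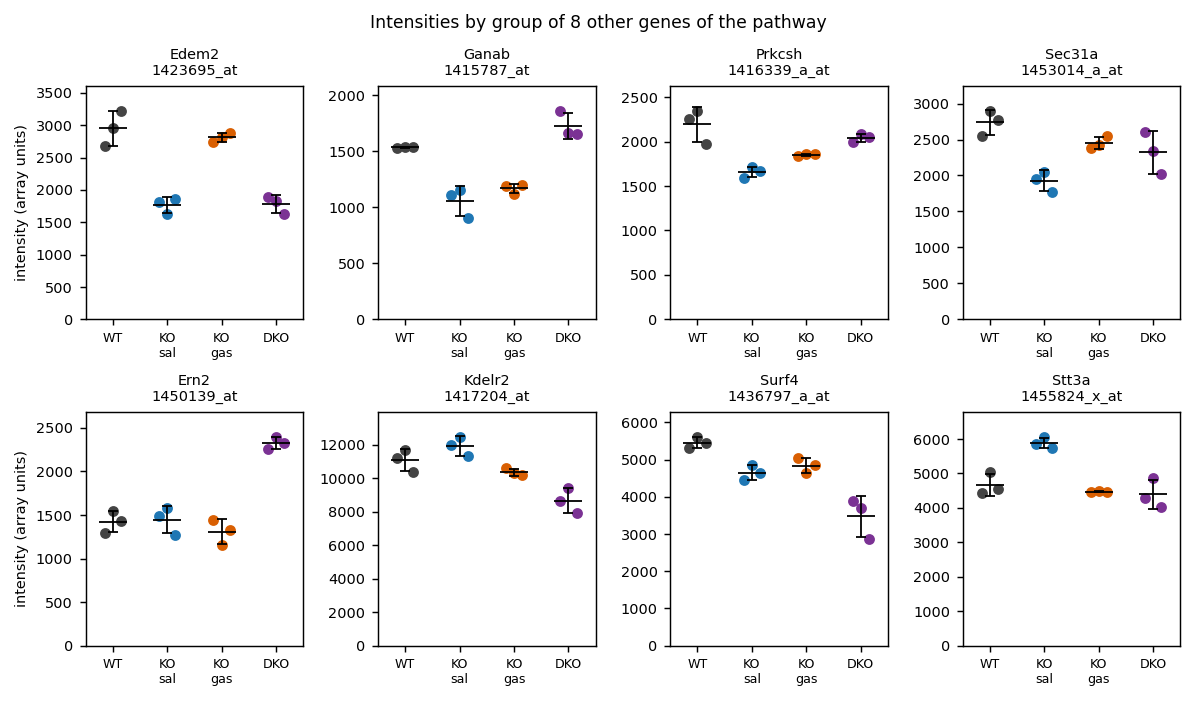
Intensity in array units of 8 further genes of the pathway in the 4 groups, with 1 point per array and the mean ± SD, each axis starting at 0. Edem2 is low with saline and in the double knockout, Ganab is on average lowest with saline and highest in the double knockout, and Ern2 is high in the double knockout only.

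Markers of cells that could bring their own secretory apparatus were set beside these values. The summed intensity of 4 measured plasma cell markers lay between 3818 and 5070, most of it from Ighm and Derl3, and that of 8 pancreatic acinar cell markers between 6654 and 8765 in all groups. Derl3 and the chief cell marker Bhlha15 also belong to the wider list of the pathway, so these marker lists are not separate from it. Jchain, the plasma cell gene for the joining chain, gave 299, 234 and 260 on the wild-type arrays, 407, 488 and 967 with saline, 257, 180 and 506 with gastrin, and 891, 535 and 522 in the double knockout. The saline and double knockout arrays lay above the wild type, by 1.13 ± 0.43 (adjusted p = 0.209) and 1.26 ± 0.43 (adjusted p = 0.143). Of the 4 plasma cell markers, 3 lay above 0 and 1 below with saline (median log2 difference 0.15). In the double knockout 1 lay above 0 and 3 below (median -0.10), both against the wild type. Jchain was the only 1 of the 4 without overlap in these comparisons, and its part in the values of the ER genes was not tested. Forestomach markers (8 of 8 measured) were uneven, at 7569 to 20598 in the wild type, 12956 to 44984 with saline, 4928 to 20826 with gastrin and 6769 to 42099 in the double knockout. Stromal and muscle markers (7 of 7) lay at 15784 to 17868, 9200 to 16727, 16795 to 27002 and 6961 to 13250 in the same order. Of the chief cell markers, 3 of 6 were called lower in the double knockout than in the wild type, against 2.12% of all genes. In the saline-infused knockout 0 of 6 were called, where 2.27% of all genes were. There 5 of the 6 lay below 0 (median log2 difference -0.31), and 3 did not overlap the wild type, against 24.8% of all genes. Bhlha15, the chief cell factor MIST1 that enlarges the secretory apparatus, gave 2466, 2087 and 1910 on the wild-type arrays, 988, 1055 and 1217 with saline, 2471, 1235 and 1655 with gastrin, and 1679, 1625 and 1442 in the double knockout, and did not pass in any comparison.

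Single arrays carried part of the spread of the 37 genes. The mean deviation of the 37 from their own means was 0.11 on array 1 of the gastrin group and -0.13 and -0.09 on arrays 2 and 3, and it was -0.07, 0.12 and -0.02 on double knockout arrays 1 to 3. Array 2 of the double knockout held the highest value of 11 genes, wild-type array 2 that of 8 and gastrin array 1 that of 7. The groups' own averages of this deviation were thus within the range spanned by arrays of a single group.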

How the data were processed

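The values are the deposited intensities of probe sets, linear whole numbers of which 5.52% to 6.43% on an array are below 0, for 12 arrays of total RNA (about 1 µg each) labelled with biotin, per the labels' protocols. How the authors scaled and summarised the probes or treated background is not stated in the sources used here. After 64 controls were taken out, 22626 of 22690 probe sets remained. Of these 20380 had 1 symbol, 691 several and 1555 none, by the platform annotation, and 20351 identifiers were matched in RefSeq's GRCm38.p6 table, which changed 0 symbols.

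No further scaling was applied. The log2 of each intensity was taken after a floor of 16 was set. One limma model (3.58.1, R 4.3.3, 8 residual and 1.10 prior degrees of freedom) with 1 mean per group was fitted to all 12 arrays, with Benjamini-Hochberg adjustment over the 22626 probe sets and a threshold of 0.05. Differences are of log2 means with the SE of the fit and unadjusted 95% intervals, and means are of intensities with the SD. Noise was taken per array as the negative of the 1st percentile of its values, 67 to 96. Depth has no meaning for arrays, and their number limits the precision. All listed genes were described, the further genes of the pathway only where called. The genes and lists were chosen with earlier results of these data known, and the genes described array by array are those called, the brightest and the one of largest change in each role, with some named after their values were seen. Alternatives were other scalings, floors and filters, a replicate block, the Gapdh ratio as a covariate, the probe set of second highest mean, limma's trend and robust options, and leaving out arrays, of which the joint removal of both wild-type arrays of high Gapdh ratio was chosen after seeing the data. Figures were drawn with matplotlib 3.10.9 in Python 3.11.15.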

Additional observations from a re-analysis of the deposited data

How the results depend on the processing

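No log2 difference of a called probe set changed its sign under any alternative run on it. Other probe sets of the same gene were not among those alternatives, and some of them went the other way, as described above. The number of the 37 ER genes called depended on the setting, and for the probe set of second highest mean it was counted over the 24 genes that had such a probe set. In the saline-infused knockout against the wild type it was 1, and it became 3 with quantile normalization, 2 with a floor of 64, 3 with bright probe sets only, 3 with limma's trend and robust options, and 0 with the Gapdh ratio as a covariate, with the probe set of second highest mean, without both wild-type arrays of high Gapdh ratio, or with only the arrays compared in the fit. In the double knockout against the wild type it was 2, and became 4, 7 and 7 with quantile normalization, bright probe sets only and trend and robust, 1 with the Gapdh ratio, and 0 without both wild-type arrays or with only the arrays compared. Against saline it was 0, and became 3, 1, 2, 2 and 3 with quantile normalization, the floor of 64, bright probe sets, the second probe set, and trend and robust. Between the gastrin-infused knockout and the wild type it was 0, and became 1 with the floor of 64, bright probe sets, or trend and robust. Over the 4 groups it was 2, and became 5 with quantile normalization, 1 with median centring, 7 with bright probe sets, 1 with the Gapdh ratio, 6 with trend and robust and 1 without both wild-type arrays. Leaving out single arrays gave 0 to 1, 0 to 1 and 1 to 2 genes in the first, second and last of these, and 0 in the others. With gastrin against saline it was 0 under every alternative. The cause was not tested, beyond fewer arrays or more genes dropped where the setting says so.

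Calls over all probe sets moved too: 470 with saline against wild type became 746 with quantile normalization, 285 with median centring, 815 with bright probe sets, 779 with trend and robust, 47 with the Gapdh ratio, 77 without both wild-type arrays, 22 with only the arrays compared and 94 to 285 without a single array. The 282 with gastrin against saline became 20 to 732, the 936 in the double knockout against the wild type 43 to 1340, and the 1352 against saline 208 to 1809. The median of the 37 genes stayed between -0.09 and -0.06 for saline against wild type and between -0.02 and 0.09 for the double knockout against saline.

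No consistent pairing of the samples by replicate number was seen. The correlation of same-numbered deviations was -0.35 to 0.50, over 0.1 for 5 of 18 pairs. For pairs of different number it was -0.37 to 0.41, over 0.1 for 15 of 36. Each array serves in several pairs, so these correlations are not independent. They cannot settle whether arrays of the same number shared a batch. With the replicate number as a block, 1 of the 37 genes was called in the double knockout against the wild type and 1 over the 4 groups, and calls over all probe sets were 239 for saline against wild type and 140 for gastrin against saline.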

Other observations

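Other settings called ER genes that missed the threshold above. Edem1 was called lower in the saline-infused knockout than in the wild type with quantile normalization, together with Sel1l as higher. Xbp1 and Sec61a1 joined Sel1l and Ddit3 in the double knockout against the wild type under the same scaling. Against saline the same scaling called Dnajc3, Xbp1 and Spcs2, each on its brightest probe set. In the double knockout against the wild type, the probe sets of second highest mean called Xbp1, Sel1l and Sec61a1.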
